A study of Homo sapiens with 6 samples.

Results

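The genes described here are those that the annotation deposited with the counts places in the KEGG pathway neuroactive ligand-receptor interaction, without the genes that it also places in cytokine-cytokine receptor interaction. Of 20030 genes in the table, 305 carried the neuroactive term, and 9 of these also carried the cytokine term. Of the remaining 296 genes, 231 had fewer than 60 counts summed over the 6 libraries, among them 93 with 0 counts in every library, which left 65 members. The term and the summed counts chose the members, and the pathway itself was taken up because an excess of higher genes in it was already known from these libraries, so the counts of called members below are descriptions and support nothing. Just inside the limit lay GRIN1 with 62 counts and PRSS1 with 65, and just outside lay P2RX5 with 55 and ADRA2C with 59.

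The 6 RNA-seq libraries came from cells labelled NCI-H929, an established human multiple myeloma cell line, which all passed through lentiviral transfection and puromycin selection. In 3 libraries the cells carried a short hairpin RNA against IGF2BP1, an RNA-binding protein that reads N6-methyladenosine (IGF2BP1-KD), and in 3 they carried a negative control (IGF2BP1-NC). The methods list 2 hairpin target sequences, and which of them these cells carried is not stated. Nothing in the labels says that the 3 libraries of a group came from separate cultures, so the p-values measure only the spread between these libraries, which may be technical. The IGF2BP1 level fell as labelled, from 48.1, 43.7 and 49.1 FPKM (fragments scaled to the length of the gene and the depth of the library) in IGF2BP1-NC libraries 1, 2 and 3 to 13.5, 12.9 and 12.8 FPKM in IGF2BP1-KD libraries 1, 2 and 3. Values below are given in this order of libraries.

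Neuroactive ligands are peptides, amines, amino acids, purines and lipids that one cell releases and that another cell reads through a receptor on its surface. Most of these receptors couple to G proteins, and the others are ion channels that open when the ligand binds; a few, such as the thyroid hormone receptors, act in the nucleus. Protease-activated receptors are a special case, since a protease such as thrombin or trypsin cuts the receptor and thereby exposes its own ligand, and for this reason the KEGG pathway also lists the trypsinogens. Outside the nervous system these molecules act in platelets, leukocytes, the gut and endocrine tissue.

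The 2 members with the largest rise were the trypsinogens PRSS1 and PRSS2, the precursors of the digestive protease trypsin. The beginnings of their coding sequences are shown because the identity of these genes decides what their counts mean. Below are the first 150 coding bases of each, 5′ to 3′, from the GENCODE release 44 transcripts, with the bases that differ between the genes in capitals.
PRSS1: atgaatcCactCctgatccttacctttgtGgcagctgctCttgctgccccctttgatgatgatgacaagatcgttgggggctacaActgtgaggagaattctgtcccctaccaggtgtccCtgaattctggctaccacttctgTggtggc
PRSS2: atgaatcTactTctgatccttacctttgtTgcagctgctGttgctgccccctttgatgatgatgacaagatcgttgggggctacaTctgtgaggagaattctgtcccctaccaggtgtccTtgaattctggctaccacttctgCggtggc

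Over their 741 coding bases the genes were equal at 688 positions (92.8%), and the longest run without a difference was 68 bases. No window of 100 bases in the PRSS1 transcript occurred in another gene, and 6 of 710 such windows in PRSS2 (0.845%) occurred in PRSS3P1, a trypsinogen pseudogene. The read length is not stated in the sources used here, and shorter reads could still be divided between the copies. PRSS1 lies on chromosome 7 of GRCh38 from 142749468 to 142753072, and PRSS2 follows it from 142760398 to 142774564, both with 5 exons on the plus strand.

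The upstream sequences of 4 of the members that rose show how alike the trypsinogen promoters are and how they differ from those of the neuropeptides NTS and TAC3. Each run is the 200 bases before the RefSeq start of the gene (GRCh38.p14), written 5′ to 3′ on the strand of the gene, with every GATAA, its reverse complement TTATC and every TATAAA in capitals. The RefSeq starts of PRSS2 and TAC3 lie inside the spans that GENCODE gives these genes.
PRSS1 (chr7:142749272-142749471, plus strand): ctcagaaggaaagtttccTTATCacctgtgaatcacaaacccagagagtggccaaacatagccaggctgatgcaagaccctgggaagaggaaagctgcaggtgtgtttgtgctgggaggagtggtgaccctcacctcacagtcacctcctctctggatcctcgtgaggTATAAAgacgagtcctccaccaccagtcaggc
PRSS2 (chr7:142770770-142770969, plus strand): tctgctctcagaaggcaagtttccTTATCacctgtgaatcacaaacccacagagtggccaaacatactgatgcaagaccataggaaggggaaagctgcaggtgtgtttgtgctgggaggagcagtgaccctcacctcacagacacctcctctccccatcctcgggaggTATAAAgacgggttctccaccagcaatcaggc
NTS (chr12:85874095-85874294, plus strand): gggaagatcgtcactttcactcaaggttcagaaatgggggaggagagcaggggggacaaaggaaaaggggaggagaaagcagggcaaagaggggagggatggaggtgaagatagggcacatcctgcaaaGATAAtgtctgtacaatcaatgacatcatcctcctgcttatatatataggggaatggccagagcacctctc
TAC3 (chr12:57016530-57016729, minus strand): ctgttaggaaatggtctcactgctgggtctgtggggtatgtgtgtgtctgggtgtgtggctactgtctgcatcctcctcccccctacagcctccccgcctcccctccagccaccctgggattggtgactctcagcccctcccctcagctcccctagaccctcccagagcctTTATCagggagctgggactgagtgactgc

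GATAA is the core of the sequence that GATA transcription factors bind, and TATAAA is a TATA box; both were searched on either strand after the values of the genes had been seen, and they do not overlap each other. RefSeq promoters of 250 bases before the start were matched for 44 of the 65 members. GATAA or TTATC occurred in 5 of 8 matched promoters of members that rose at least 2-fold (PRSS1, PRSS2, NTS, TAC3 and P2RX7), in 0 of 2 of members that fell at least 2-fold and in 5 of 34 of the other members (14.7%). Of all 27305 promoters, 21.0% held it. TATAAA or its reverse complement occurred in 2 of the 8, in 2 of the 34 and in 11.1% of all promoters. These matches are descriptions of letters in the window, the trypsinogen promoters are near copies of each other, and nothing about binding was measured.

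As a whole the pathway was thinly expressed. The members took 0.103% to 0.123% of the counts of a library. Their median level was 1.73 FPKM, against 8.22 FPKM over all tested genes; 25 members had a mean under 1 FPKM, 32 lay from 1 to 10 FPKM and 8 were above 10 FPKM. The most abundant was NMU, which encodes the neuropeptide neuromedin U, with a mean of 134 FPKM over the 6 libraries, and it alone made up 12.0% to 19.3% of the counts of the members in a library. GAL (galanin), TSPO, PRSS2 and THRA followed.

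**Figure D1:**
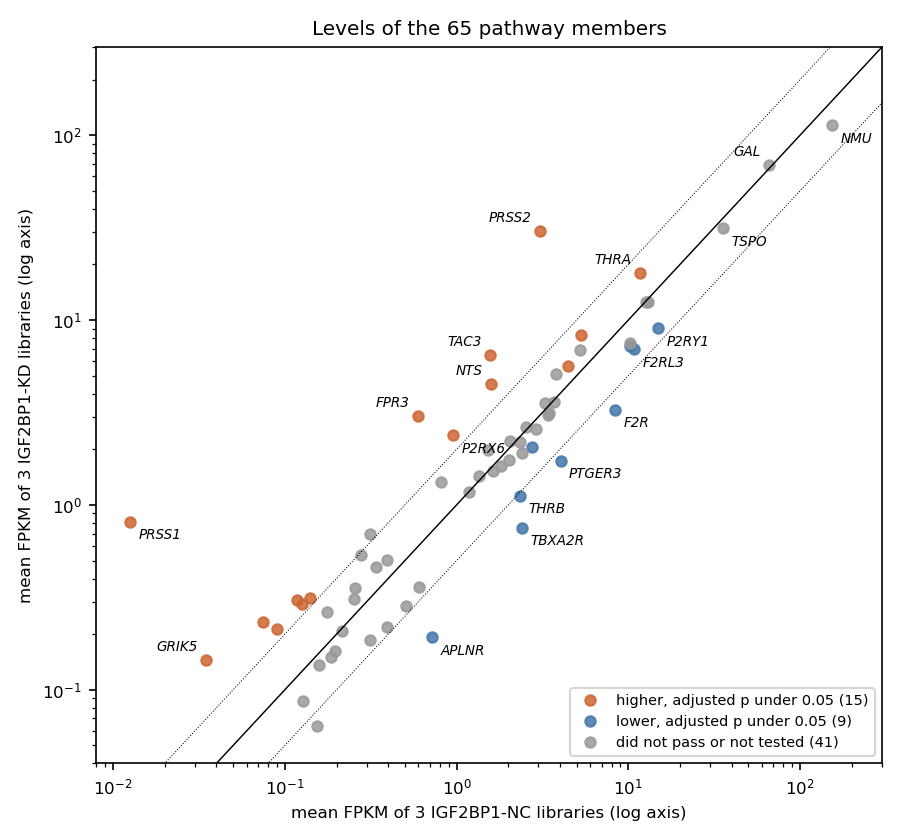
Mean FPKM of each of the 65 members in the 3 IGF2BP1-NC libraries (x axis, log scale) against the 3 IGF2BP1-KD libraries (y axis, log scale), with equality as a solid line and 2-fold differences as dotted lines. Orange points (15) were higher and blue points (9) lower in IGF2BP1-KD at an adjusted p under 0.05, and PRSS2 stands out with 30.2 against 3.06 FPKM while the most abundant members, NMU, GAL and TSPO, lie near equality.

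Of the 65 members, 64 passed edgeR's filter on low counts and were tested; the exception was GABRG1, a GABA-A receptor subunit with 33, 13 and 10 counts in IGF2BP1-NC and 8, 7 and 8 counts in IGF2BP1-KD libraries. Had both groups stood at the counts of the lower group, another 5 members would have fallen short of 60 counts. The lower group was IGF2BP1-NC for PRSS1, P2RX7 and GRIK5, and IGF2BP1-KD for PTGIR and GRIN1. The imbalance was smallest for GRIN1, with 37 counts in IGF2BP1-NC and 25 in IGF2BP1-KD, and largest for PRSS1, with 1 and 64. By the quasi-likelihood test of edgeR (two-sided; p-values adjusted by Benjamini and Hochberg over all 11994 tested genes, and meant below wherever edgeR is named), 15 of 64 members were higher in IGF2BP1-KD (23.4%) and 9 were lower (14.1%), beside 13.7% higher and 14.5% lower over all tested genes. A rise of at least 2-fold was called for 12 members (18.8%, against 3.06% of all tested genes) and a fall of at least 2-fold for 5 members (7.81%, against 1.67%). All 3 IGF2BP1-KD libraries lay above every IGF2BP1-NC library for 18 tested members (28.1%, against 22.4% of all tested genes) and below every IGF2BP1-NC library for 13 (20.3%, against 23.2%). The median log2 fold change was -0.032 over the tested members and -0.0048 over all tested genes. Without IGF2BP1-NC library 2, the number of members at least 2-fold higher dropped from 12 to 7, and without IGF2BP1-KD library 3 it was 8. Of the 12 members that rose at least 2-fold, 7 had a mean under 1 FPKM in both groups and 6 kept an adjusted p under 0.05 in each of the 6 fits that left out 1 library, whereas 5 of the 5 that fell at least 2-fold did so.

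**Figure D2:**
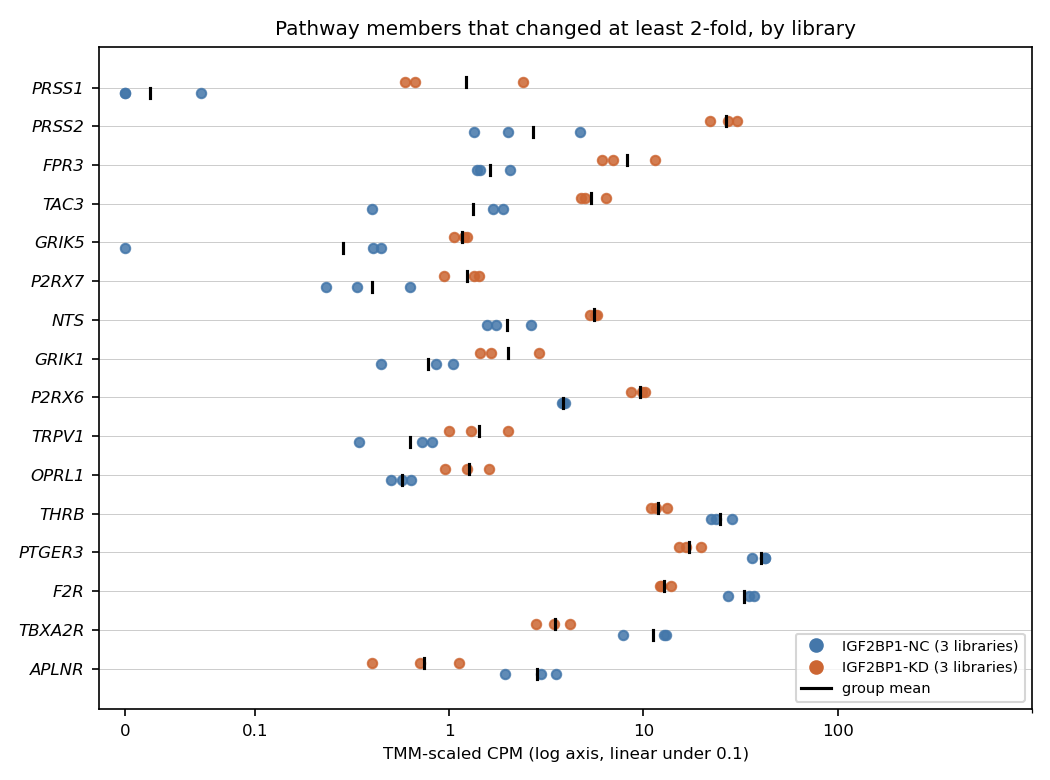
Depth-scaled counts (CPM, with TMM factors; log axis, linear under 0.1) of 16 of the 17 members that changed at least 2-fold, with 1 point per library and a black bar at the mean of the 3 libraries of a group. IGF2BP1-NC and IGF2BP1-KD points do not overlap for any of these 16 genes, which were selected for their difference between these same libraries. The lack of overlap therefore adds no support. The IGF2BP1-KD points of PRSS1 are spread from 0.59 to 2.4 CPM.

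The trypsinogens rose and the protease-activated receptors fell. PRSS2 had 83, 23 and 36 counts in IGF2BP1-NC and 395, 465 and 529 counts in IGF2BP1-KD libraries, 3.06 ± 2.09 FPKM (SD, n = 3) against 30.2 ± 4.78 FPKM (SD, n = 3). Every IGF2BP1-KD library lay far above every IGF2BP1-NC library, and IGF2BP1-NC library 1 was the highest of its group. The log2 fold change of PRSS2 was 3.30 (standard error, SE, of 0.41; adjusted p = 0.00318, edgeR), and leaving out any 1 library moved it to no less than 2.98 and no more than 3.98. PRSS1 was at 0, 1 and 0 counts in IGF2BP1-NC and at 12, 10 and 42 counts in IGF2BP1-KD libraries. A fold change fitted to so few counts depends on the added prior count, so the ratio of the summed counts is given in its place, 64 counts against 1, or 64.3-fold after scaling by library size (95% interval 11.1 to 2580, exact conditional binomial, which covers counting error only). The adjusted p of PRSS1 from the same edgeR test was 0.0044, and it was 0.00559 without IGF2BP1-KD library 3, which held 42 of its 64 counts. The ratio without that library was 22 counts against 1, or 33.2-fold after scaling (95% interval 5.37 to 1370).

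Of the receptors that such proteases cut, F2R (PAR1, the main thrombin receptor) had 650, 602 and 486 counts in IGF2BP1-NC and 248, 209 and 214 counts in IGF2BP1-KD libraries. The groups did not overlap, and the log2 fold change was -1.37 (SE 0.13; adjusted p = 5.17e-05, edgeR). F2R lies on chromosome 5 from 76716126 to 76735770 with 2 exons. F2RL3 (PAR4, cut by thrombin and trypsin) on chromosome 19 had 672, 683 and 615 counts against 473, 430 and 354 counts, again without overlap, and fell by 0.64 on the log2 scale (SE 0.11; adjusted p = 0.00171, edgeR). F2RL1 (PAR2), the receptor best known as a target of trypsin, had 6, 6 and 6 counts in IGF2BP1-NC and 4, 4 and 2 counts in IGF2BP1-KD libraries, too few for the 60-count limit and for a test. F2, which encodes prothrombin, had at most 4 counts in any library.

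Serpins and other protease inhibitors were set beside the trypsinogens as a list of 32 genes, most of them inhibitors of serine proteases. The list also holds SERPINH1 and SERPINF1, serpins that do not inhibit proteases, and CST3, which inhibits cysteine proteases. Of 16 tested, 4 were higher, SERPINH1 and SERPINF1 among them, 1 was lower and 11 did not pass. Over all tested genes, 13.7% were higher and 14.5% lower. The median log2 fold change of the 16 inhibitor genes was -0.00044. The 3 genes with the smallest p were SERPINH1, TFPI and SERPINC1. SERPINH1, a collagen chaperone, rose from 2133, 2235 and 2158 counts to 3675, 3420 and 4398 counts (log2 fold change 0.82, SE 0.084; adjusted p = 0.000111, edgeR). TFPI, the inhibitor of the tissue factor pathway of coagulation, fell from 2761, 2653 and 2927 counts to 2181, 2079 and 2163 counts (log2 fold change -0.37, SE 0.056; adjusted p = 0.000928, edgeR). SERPINC1, which encodes antithrombin, rose from 7, 4 and 3 to 67, 50 and 199 counts, with a log2 fold change of 4.46 (SE 0.75; adjusted p = 0.00607, edgeR). As for PRSS1, the highest count of SERPINC1 was in IGF2BP1-KD library 3, and its log2 fold change without that library was 3.62.

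Among the 5 peptide ligands, TAC3 and NTS rose at least 2-fold, whereas NMU, GAL and NPFF did not pass in edgeR. Over all tested genes, 3.06% rose at least 2-fold. TAC3, which encodes neurokinin B, had 7, 29 and 34 counts in IGF2BP1-NC and 85, 85 and 112 counts in IGF2BP1-KD libraries, 1.57 ± 0.95 against 6.45 ± 1.07 FPKM (SD, n = 3). IGF2BP1-NC library 1 was the lowest, and the log2 fold change of TAC3 was 2.01 (SE 0.40; adjusted p = 0.00608, edgeR). NTS, which encodes neurotensin, rose from 46, 30 and 28 counts to 101, 90 and 101 counts, which is 1.59 ± 0.482 against 4.51 ± 0.193 FPKM (SD, n = 3). Its groups were well separated, with a log2 fold change of 1.49 (SE 0.23; adjusted p = 0.000965, edgeR). NMU, by far the most abundant ligand, had 3522, 4043 and 3241 counts against 2251, 2292 and 3297 counts. Here IGF2BP1-KD library 3 lay within the range of the control libraries and the others lay below it, and the log2 fold change of -0.46 did not pass (SE 0.18; adjusted p = 0.113, edgeR). The fall of NMU did pass with DESeq2 (log2 fold change -0.46, adjusted p = 0.00327) and, in edgeR, without IGF2BP1-KD library 3 (-0.65, adjusted p = 0.00275). GAL had 786, 1124 and 948 counts against 1054, 985 and 907 counts, a log2 fold change of 0.05 (SE 0.12; adjusted p = 0.795, edgeR). NPFF had 73.9% of its exon bases in common with the readthrough gene ATF7-NPFF, and its log2 fold change was 0.37 (adjusted p = 0.424, edgeR).

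The partners of these peptides and of the peptide receptors were looked up by known pairs, a choice made after the values had been seen. TACR3, the receptor of neurokinin B, had 0 counts in every library, which allows up to 3 counts in each. The same held for NTSR2, GALR1, NMUR2 and NPFFR1. NTSR1, the main neurotensin receptor and a member, had 6, 8 and 22 counts in IGF2BP1-NC and 8, 11 and 11 counts in IGF2BP1-KD libraries, overlapping groups with a log2 fold change of -0.25 (adjusted p = 0.747, edgeR). NMUR1, a receptor of neuromedin U, had 10, 4 and 4 counts against 12, 13 and 9 counts and a log2 fold change of 0.91 that did not pass (adjusted p = 0.181, edgeR). On the other side, the ligands of 4 peptide receptors, namely PNOC for OPRL1, KISS1 for KISS1R, OXT for OXTR and APELA for APLNR, were at 0 counts in every library. APLN, the other ligand of APLNR, had 0, 0 and 0 counts against 3, 0 and 1 counts, and GIP, the ligand of GIPR, had 2 counts over all libraries. Complement genes were better expressed. C3, the source of the ligand of C3AR1, had 84, 54 and 38 counts against 70, 79 and 98 counts and a log2 fold change of 0.49 that did not pass (adjusted p = 0.211, edgeR). C5, the source of the ligand of C5AR1, had 55, 60 and 67 counts in IGF2BP1-NC and 114, 110 and 134 counts in IGF2BP1-KD libraries and rose by 0.98 on the log2 scale (SE 0.18; adjusted p = 0.00229, edgeR).

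Peptide and protein receptors, 11 in all, had a median level of 0.506 FPKM. Of these, 2 were higher, 1 was lower and 8 did not pass, beside 13.7% higher and 14.5% lower over all tested genes. FPR3, a formyl peptide receptor of myeloid cells on chromosome 19, had 36, 24 and 26 counts in IGF2BP1-NC and 125, 104 and 201 counts in IGF2BP1-KD libraries. Its level rose from 0.597 ± 0.143 to 3.01 ± 1.06 FPKM (SD, n = 3) without overlap, a log2 fold change of 2.32 (SE 0.28; adjusted p = 0.000268, edgeR) and of 2.00 without IGF2BP1-KD library 3. OPRL1, the nociceptin receptor, had only 10, 11 and 9 counts against 17, 21 and 28 counts; its log2 fold change of 1.14 (SE 0.35; adjusted p = 0.0322, edgeR) lost the call in 5 of 6 fits that left out 1 library, with an adjusted p of up to 0.117. In the annotation used here, 79.8% of the exon bases of OPRL1 overlap a gene on the opposite strand, and the strand setting of the counting is not stated. APLNR, the apelin receptor, fell from 34, 61 and 53 counts to 20, 12 and 7 counts (log2 fold change -1.91, SE 0.37; adjusted p = 0.00382, edgeR). C5AR1, the receptor of complement C5a, had 13, 15 and 11 counts against 20, 20 and 46 counts. Its log2 fold change of 1.14 just missed the threshold (SE 0.40; adjusted p = 0.0544, edgeR).

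In the group of 10 lipid mediator receptors, 1 was higher, 2 were lower and 7 did not pass. Over all tested genes, 13.7% were higher and 14.5% lower. PTGER3, a receptor of prostaglandin E2, had 637, 726 and 760 counts in IGF2BP1-NC and 356, 280 and 267 counts in IGF2BP1-KD libraries, 4.03 ± 0.291 against 1.73 ± 0.237 FPKM (SD, n = 3). The groups lay far apart, and the log2 fold change was -1.23 (SE 0.11; adjusted p = 5.12e-05, edgeR). TBXA2R, the thromboxane receptor through which platelets amplify their activation, fell from 228, 221 and 140 counts to 75, 59 and 49 counts. IGF2BP1-NC library 3 was the lowest control, and the log2 fold change of TBXA2R was -1.68 (SE 0.23; adjusted p = 0.000567, edgeR). LTB4R, a receptor of leukotriene B4, rose from 341, 392 and 347 to 492, 432 and 430 counts, with a log2 fold change of 0.33 (SE 0.098; adjusted p = 0.0272, edgeR) that lost the call in 3 of 6 fits without 1 library, with an adjusted p of up to 0.108. Its exons have 11.2% of their bases in common with those of LTB4R2.

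Purine receptors read extracellular ATP, ADP and adenosine. Of 7 members, the ATP-gated channels P2RX4, P2RX6 and P2RX7 were higher, the ADP receptor P2RY1 was lower and 3 did not pass. The shares over all tested genes were 13.7% higher and 14.5% lower. P2RX6 had 68, 68 and 68 counts in IGF2BP1-NC and 176, 147 and 179 counts in IGF2BP1-KD libraries, a wide gap beside a small spread, with a log2 fold change of 1.30 (SE 0.15; adjusted p = 0.000217, edgeR). P2RX4 rose from 196, 198 and 185 counts to 310, 253 and 336 counts (log2 fold change 0.64, SE 0.12; adjusted p = 0.00344, edgeR). For P2RX7, the channel known from inflammasome activation, the counts were 11, 4 and 6 against 24, 16 and 25. Its log2 fold change of 1.62 (SE 0.42; adjusted p = 0.0145, edgeR) lost the call without IGF2BP1-NC library 2 or IGF2BP1-KD library 1, with an adjusted p of up to 0.0638, and 35.8% of its exon bases overlap a gene on the opposite strand. P2RX1, the ATP-gated channel of platelets, had 476, 316 and 297 counts against 532, 439 and 464 counts and did not pass (log2 fold change 0.40, SE 0.17; adjusted p = 0.108, edgeR). P2RY1 was the most abundant of the purine receptors; it fell from 1667, 1779 and 1855 counts to 1165, 1064 and 952 counts, 14.9 ± 0.512 against 9.03 ± 0.819 FPKM (SD, n = 3). The log2 fold change of P2RY1 was -0.73 (SE 0.080; adjusted p = 0.000147, edgeR).

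Several of the receptors that fell carry a second KEGG term, platelet activation. Of the 6 members with that term, F2R, F2RL3, TBXA2R and P2RY1 were lower, P2RX1 and PTGIR did not pass and 0 were higher. Over all tested genes, 14.5% were lower and 13.7% higher. This grouping was made after the values had been seen, and its 6 genes are a small part of the 123 genes that carry the platelet activation term. Of the 18 members with the term calcium signaling pathway, 3 were higher, 3 were lower and 12 did not pass, and 15 members carried no other pathway term.

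**Figure D3:**
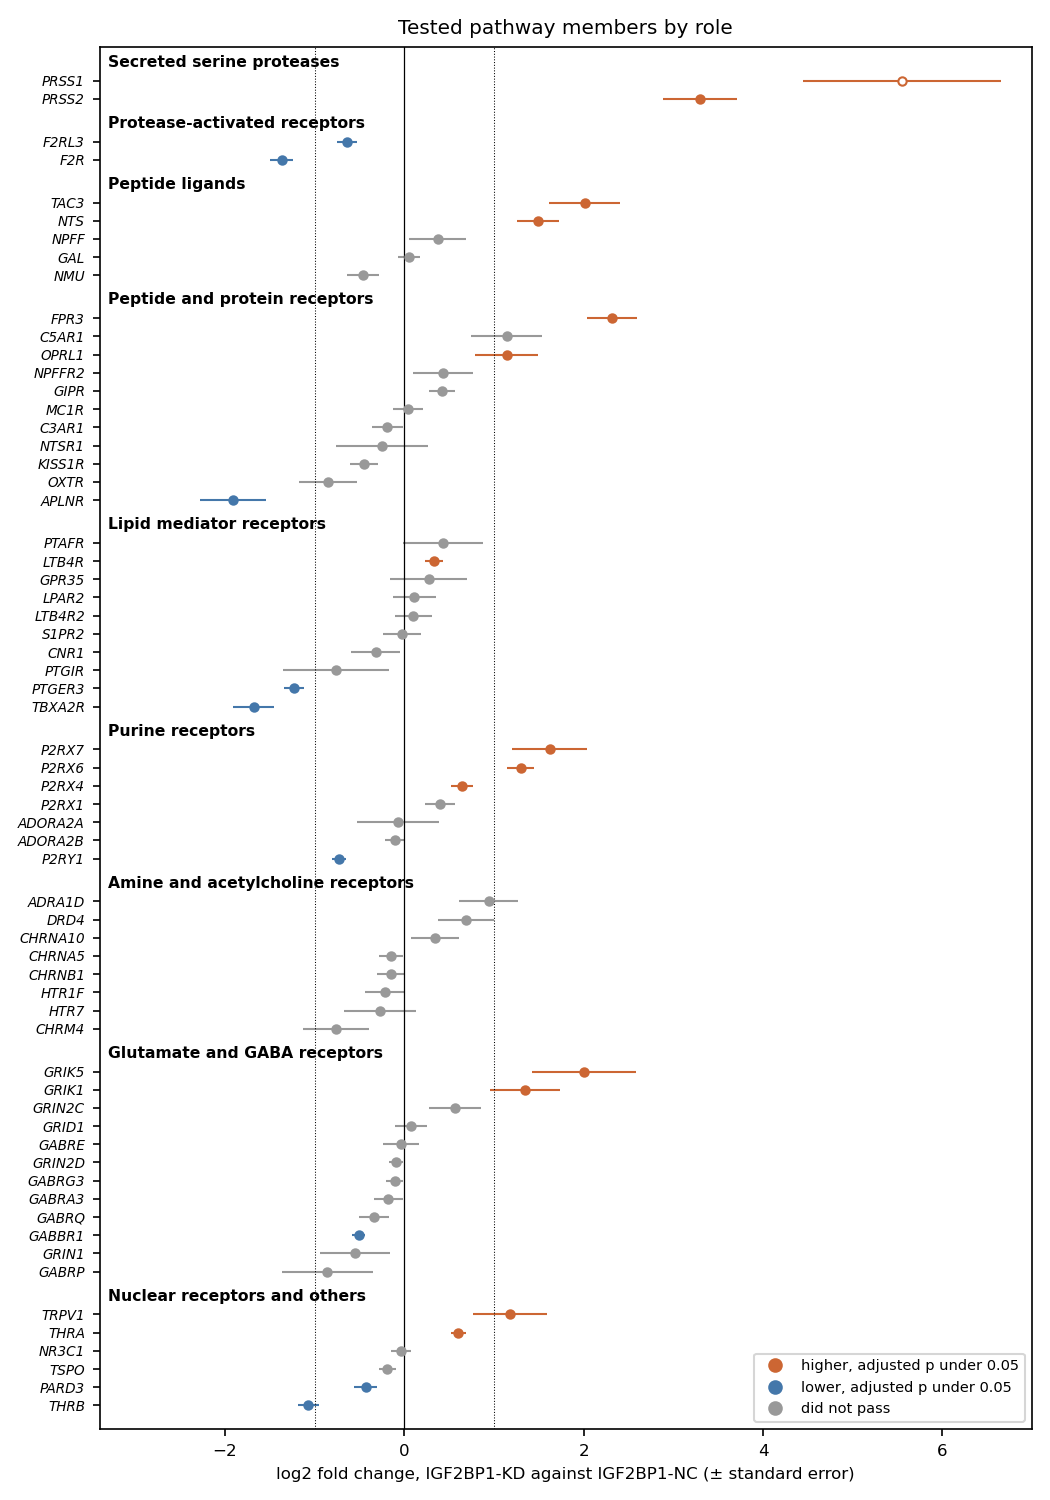
Log2 fold change (IGF2BP1-KD against IGF2BP1-NC, x axis) of 63 of the 64 tested members from edgeR, with horizontal bars for ± 1 standard error (SE), grouped by the role of the gene. Both trypsinogens are on the right and both protease-activated receptors on the left, and none of the 8 amine and acetylcholine receptors is coloured; the open point of PRSS1 is a fitted value that depends on the prior count, since PRSS1 had 1 count in the IGF2BP1-NC libraries.

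Of the 22 receptor genes of classical neurotransmitters (amines, acetylcholine, glutamate and GABA), 11 were above 1 FPKM and 11 at or below it. None of the 8 receptors of amines and acetylcholine passed in edgeR, where 2 had an unadjusted p under 0.05, and the count was also 0 with limma-voom, which had 2 unadjusted, and with DESeq2, which had 0. Over all tested genes, edgeR called 13.7% higher and 14.5% lower. With limma on log2(FPKM + 1), 2 of the 8 were higher. The closest to the threshold was ADRA1D, an alpha-1 adrenergic receptor, with 12, 11 and 16 counts in IGF2BP1-NC and 29, 18 and 28 counts in IGF2BP1-KD libraries (log2 fold change 0.94, SE 0.33; adjusted p = 0.0523, edgeR).

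Of 13 tested glutamate and GABA receptor genes, 3 were higher, 1 was lower and 9 did not pass. Over all tested genes, the shares were 13.7% higher and 14.5% lower. Among the 3 higher receptor genes were the kainate receptor subunits GRIK1 and GRIK5, both with low counts. GRIK1 had 15, 18 and 8 counts against 26, 28 and 51 counts (log2 fold change 1.35, SE 0.39; adjusted p = 0.0241, edgeR). GRIK5 had 0, 7 and 8 counts against 22, 18 and 21 counts (log2 fold change 2.00, SE 0.58; adjusted p = 0.0249, edgeR). Neither call held in every fit that left out 1 library. In edgeR the adjusted p of GRIK1 was 0.101 without IGF2BP1-KD library 3, 0.0767 without IGF2BP1-NC library 3 and 0.0515 with the replicate number as a block, and it reached 0.0748 for GRIK5, which lost the call in 4 of 6 such fits. GABBR1, a subunit of the G protein-coupled GABA-B receptor, was well expressed, fell from 1151, 1173 and 1146 counts to 902, 768 and 756 counts, and had a log2 fold change of -0.51 (SE 0.076; adjusted p = 0.000816, edgeR).

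The thyroid hormone receptors moved in opposite directions. THRA rose from 737, 637 and 797 counts to 1172, 1071 and 1031 counts, which is 11.7 ± 1.13 against 17.9 ± 0.919 FPKM (SD, n = 3), with a log2 fold change of 0.60 (SE 0.084; adjusted p = 0.000574, edgeR). THRB fell from 503, 384 and 424 counts to 207, 223 and 192 counts, 2.33 ± 0.35 against 1.12 ± 0.107 FPKM (SD, n = 3). Its log2 fold change was -1.07 (SE 0.12; adjusted p = 0.000191, edgeR). Neither gene had overlapping groups. NR3C1, the glucocorticoid receptor, had a log2 fold change of -0.04 (adjusted p = 0.786, edgeR), and TSPO, a protein of the outer mitochondrial membrane, had 685, 803 and 705 counts against 677, 650 and 582 counts and did not pass (log2 fold change -0.19, adjusted p = 0.145, edgeR).

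The last members called were TRPV1 and PARD3. TRPV1, the channel that capsaicin opens, had 6, 14 and 13 counts in IGF2BP1-NC and 23, 17 and 35 counts in IGF2BP1-KD libraries. Its log2 fold change of 1.18 lay just inside the threshold (SE 0.41; adjusted p = 0.0491, edgeR) and lost the call in 6 of 6 fits without 1 library, with an adjusted p of 0.0525 to 0.183; 42.3% of its exon bases are in common with neighbouring transcripts on the same strand, so its reads may be divided. PARD3, a scaffold protein of cell polarity and not a receptor, had 261, 322 and 308 counts against 246, 217 and 195 counts. Its log2 fold change of -0.43 (SE 0.13; adjusted p = 0.0258, edgeR) lost the call in 4 of 6 such fits, with an adjusted p of up to 0.11.

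The machinery behind G protein-coupled receptors was read in the same way, from a list of 59 genes. These encode G protein subunits, adenylyl cyclases, phospholipases C beta, receptor kinases, arrestins and RGS proteins. Of 36 tested genes, 6 were higher (16.7%), 4 were lower (11.1%) and 26 did not pass, beside 13.7% and 14.5% of all tested genes, with 1 change of at least 2-fold in each direction and a median log2 fold change of -0.083. The smallest p-values were those of RGS10, GNAS and GNAI2. RGS10, which ends G protein signals, fell from 817, 735 and 696 counts to 566, 538 and 531 counts (log2 fold change -0.45, SE 0.085; adjusted p = 0.00297, edgeR). GNAS, the stimulatory alpha subunit, had 9044, 9458 and 9395 counts against 8415, 7484 and 7093 counts (log2 fold change -0.27, SE 0.067; adjusted p = 0.0119, edgeR), and without IGF2BP1-KD library 3 its adjusted p was 0.0501. GNAI2, an inhibitory alpha subunit, rose from 1135, 1177 and 1129 counts to 1388, 1299 and 1649 counts (log2 fold change 0.34, SE 0.086; adjusted p = 0.0136, edgeR). Without IGF2BP1-NC library 2 or IGF2BP1-KD library 3, the number of higher genes in the list was 2, and it was 3 without IGF2BP1-KD library 2.

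Which cells the libraries hold was read from 7 lists of cell type markers. The label plasma cell line was not borne out by most of its markers. Of 12 plasma cell genes, 7, including the BCMA gene TNFRSF17, IRF4 and CD38, never exceeded 3 counts in a library. On the other side, 3 of the 12, XBP1, PRDM1 and SDC1 (CD138), were at 1 CPM or more in every library. All 18 erythroid genes were at 1 CPM or more in every library. They summed to 9350 to 11400 CPM in IGF2BP1-NC and 10200 to 11100 CPM in IGF2BP1-KD libraries, with HBE1 the most abundant at 4900 CPM. The sum hides changes of single genes. Of the 18, all tested, 2 were higher (SLC4A1 and EPB42), 8 were lower and 8 did not pass. Over all tested genes, 13.7% were higher and 14.5% lower. None of the 8 fell as much as 2-fold. In bulk RNA, fewer cells of a type and less RNA per cell cannot be told apart. Megakaryocyte and platelet genes, the cell type in which F2R, F2RL3, TBXA2R and P2RY1 are best known, summed to 757 to 787 CPM in IGF2BP1-NC and 555 to 629 CPM in IGF2BP1-KD libraries. Of the 18 genes of that list, 7 were tested. Of these, 4 were lower and 1 was higher, beside 14.5% lower and 13.7% higher over all tested genes. The defining markers PF4, GP9 and GP1BA were among 9 genes with at most 3 counts in every library. The fall of the sum came from GP1BB, at 293 to 392 CPM in IGF2BP1-NC and 137 to 213 CPM in IGF2BP1-KD libraries, while the rest of the list summed to 394 to 464 CPM and 394 to 418 CPM. Eosinophil, basophil and mast cell genes rose with the higher members, from 200 to 221 CPM in sum to 459, 473 and 792 CPM in IGF2BP1-KD libraries 1, 2 and 3. All 7 tested genes of that list of 20 were higher, 6 of them at least 2-fold, beside 13.7% and 3.06% of all tested genes. The low-count filter favoured this outcome, since EPX, MS4A2, HDC and SIGLEC8 met it only through the IGF2BP1-KD libraries. EPX, for example, had 4, 4 and 1 counts against 17, 21 and 76 counts. FCER1A went the other way, with 7, 7 and 7 counts against 2, 5 and 3 counts, and was not tested. In the same list 9 genes, among them RNASE2, CPA3 and TPSAB1, never exceeded 3 counts. IGF2BP1-KD library 3, with the highest sum of that list, was also the highest of its group for 11 of the 15 higher members. IGF2BP1-KD library 1 was the highest for 3, namely LTB4R, GRIK5 and THRA. Some of the 11 were near ties, such as NTS with 101, 90 and 101 counts and P2RX7 with 24, 16 and 25 counts. How often library 3 was the highest over all tested genes was not counted, so this is not shown to be particular to the members.

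**Figure D4:**
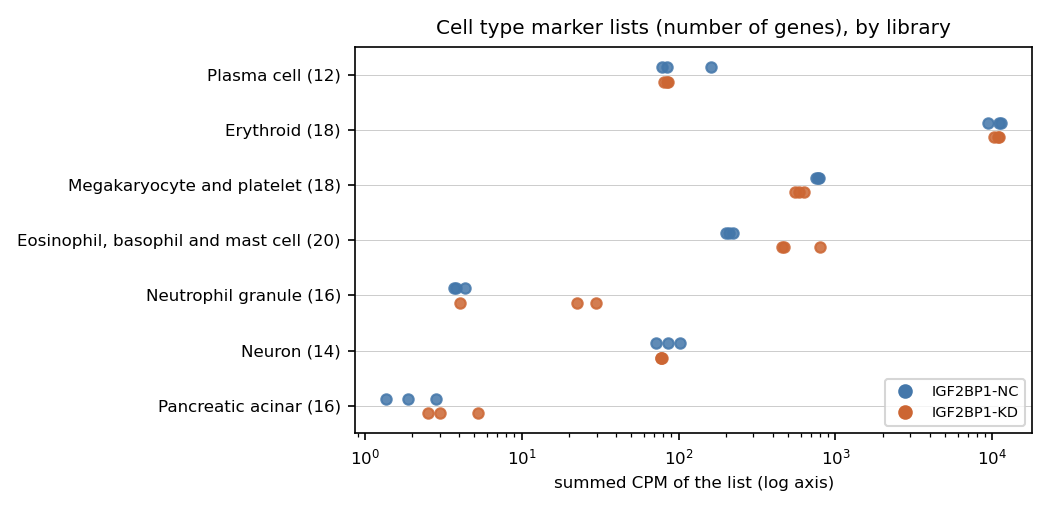
Summed CPM of each cell type marker list (log axis), with 1 point per library; the number of genes in a list stands in brackets. The erythroid list sums to 9350 to 11400 CPM over both groups, the eosinophil, basophil and mast cell list is higher in all 3 IGF2BP1-KD libraries, and the megakaryocyte and platelet list is lower in them, a difference that came from GP1BB.

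The remaining lists were low. Of 14 neuron genes, 9 never exceeded 3 counts, RBFOX3, SNAP25 and MAP2 among them. The list summed to 71.9 to 102 CPM in IGF2BP1-NC and 77.0 to 79.0 CPM in IGF2BP1-KD libraries. Of its 4 tested genes, 0 were higher and 1 was lower, beside 13.7% higher and 14.5% lower over all tested genes. The pancreatic acinar list, which includes PRSS1, had 13 of 16 genes at no more than 3 counts in every library, among them CPA1, CELA3A, PNLIP and PTF1A. Neutrophil granule genes summed to 3.69 to 4.34 CPM in IGF2BP1-NC and to 4.03, 29.6 and 22.4 CPM in IGF2BP1-KD libraries, with IGF2BP1-KD library 1 near the control level. The part of any of these cell types in the results for the members was not tested.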

How the data were processed

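RNA from 6 libraries of cells labelled NCI-H929, 3 IGF2BP1-KD and 3 IGF2BP1-NC, was sequenced after stranded mRNA library preparation. Trimmomatic (trimming), HISAT2 (alignment to GRCh38) and HTSeq-count gave the gene counts that the authors deposited, whole numbers without normalization. The FPKM values the authors deposited are described as made with Cufflinks; within a gene they are proportional to the counts. Versions, options, the strand setting and the annotation release are not given in the sources used here, so the division of reads between overlapping or near-identical genes is unknown.

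Total counts per library were 16885449 to 18112179, where a count of 0 allows 3 counts (0.168 to 0.177 CPM); such limits and intervals cover counting error only. Counts were scaled by TMM and tested with edgeR 4.0.16 in R 4.3.3 (filterByExpr, glmQLFit with robust estimation, glmQLFTest, two-sided, Benjamini-Hochberg adjustment over 11994 genes; 8036 had too few counts). A gene was called at an adjusted p under 0.05, and as 2-fold at an absolute log2 fold change of at least 1. Alternatives were DESeq2 1.42.0, limma 3.58.1 (voom, and log2(FPKM + 1) or log2(FPKM + 0.1)), other scalings and filters, the replicate number as a block, and each library left out in turn. The tests were checked on counts simulated for this comparison, where edgeR called 97 of 100 genes changed 4-fold, 93 of 100 changed 2-fold and 6 unchanged genes among 11901 tested. Python 3.11.15 (pandas 2.3.3, scipy 1.17.1, matplotlib 3.10.9) was used for the other tables and the figures.

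The members, the gene lists and the rule for naming genes were chosen with earlier results of these data known. Named are the members called at least 2-fold, the trypsinogens and protease-activated receptors, the 5 most abundant members, the 2 on either side of the 60-count limit, the members called under 2-fold, the 3 smallest p-values of each partner list and IGF2BP1; 1 member is counted but not reported here. Members near the threshold, receptor partners and roles were added after their values had been seen. Gene positions and overlaps are from GENCODE release 44, and promoters from RefSeq (GRCh38.p14). Of all members, 53 had no 100-base window in common with another gene and 6 had more than 5% of their windows in common.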

Additional observations from a re-analysis of the deposited data

How the results depend on the processing

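The main counts were 12 members at least 2-fold higher, 5 at least 2-fold lower, 15 higher and 9 lower. With at least 10 counts required in every library, 5 members were at least 2-fold higher and 9 higher, since fewer low genes were then tested. On log2(FPKM + 1), 4 were at least 2-fold higher and 1 at least 2-fold lower, and on log2(FPKM + 0.1), 6 were at least 2-fold higher; the pseudocount shrinks the fold changes of low genes. With each library left out in turn, 7 to 10 members were at least 2-fold higher, 4 to 6 at least 2-fold lower, 10 to 16 higher and 8 to 9 lower. In the G protein list, 2 to 8 genes were higher and 2 to 4 lower with each library left out, and 2 were lower with DESeq2, against 6 and 4. In the protease inhibitor list, 8 were higher and 2 lower without a filter on low counts, 2 were lower with the replicate block, and 3 to 5 were higher and 1 to 3 lower with each library left out, against 4 and 1. The other counts stayed within 1.5 times their main values. The shares of all tested genes called under these other settings are not given here, so the counts describe the members and lists only.

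The same-numbered libraries deviated together with Pearson's r of -0.052, 0.0363 and -0.106, and the other pairs gave r of -0.0667 to 0.0953. These values show no sign that the replicate numbers pair the libraries, and the labels do not say whether they do. With the replicate block, 9 members were at least 2-fold higher, 5 at least 2-fold lower, 14 higher and 10 lower. For the 33 named genes, 441 of 485 alternative fits kept the direction and the side of the threshold, 41 lost the call, 2 gained it, both for NMU, and 1 reversed, GAL, which lay between -0.07 (without IGF2BP1-NC library 1) and 0.2 (without IGF2BP1-NC library 2) over the 6 fits that left out 1 library. Of the 12 members at least 2-fold higher, 7 were below 1 FPKM in both groups.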

Other observations

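Beside the members, some genes of the same KEGG pathway that the limits left out had values of the same kind; they were chosen after their values had been seen. LEPR, the leptin receptor, which also carries the cytokine receptor term, fell from 1528, 1518 and 1462 counts in IGF2BP1-NC to 767, 722 and 557 counts in IGF2BP1-KD libraries (log2 fold change -1.13, standard error 0.11, adjusted p = 8.8e-05, edgeR). ADRA2C, an alpha-2 adrenergic receptor, was 1 count under the limit, with 3, 7 and 2 counts against 23, 13 and 11 counts (log2 fold change 1.94, standard error 0.53, adjusted p = 0.0196, edgeR). FPR1, the formyl peptide receptor of neutrophils, had 2, 1 and 5 counts against 13, 17 and 12 counts, a rise of 2.35 on the log2 scale (standard error 0.54, adjusted p = 0.0089, edgeR). S1PR1, a receptor of sphingosine 1-phosphate, had 4, 4 and 0 counts against 6, 16 and 14 counts and was not tested.

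Within the plasma cell list, SLAMF7 was the only gene of 5 tested that passed, with 4, 5 and 4 counts against 52, 42 and 181 counts (log2 fold change 4.37, standard error 0.80, adjusted p = 0.00878, edgeR). The sum of that list was highest in IGF2BP1-NC library 1 (160 CPM), where XBP1 had 2689 counts, beside 1181 to 1365 counts in the other 5 libraries.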
